A study of Mus musculus with 10 samples.

Results

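Hepatocytes labelled HIF-1alpha null were compared with adeno-treated wild-type hepatocytes, both under hypoxia. The comparison rests on 6 of the 10 arrays of the series, 3 of each group, chosen by their titles and set against each other as 3 pairs of equal sample number. The other 4 arrays, 2 of untreated and 2 of adeno-treated normoxic hepatocytes, enter as reference levels and in the estimate of the spread. All samples were mouse hepatocyte total RNA, each measured on 1 oligonucleotide array of 12488 probe sets. The wild-type samples are the hypoxic ones labelled as adeno-treated, with the word wild type taken from the series title. The labels do not say what the adeno vector carried, whether the null cells received one, how HIF-1alpha was removed, how low the oxygen was or for how long. They do not give the animals' strain or age, or the genotype of the normoxic cells, and no normoxic null sample is among the 10. A difference between the 2 hypoxic groups therefore holds the genotype and any difference in adeno treatment together, and these cannot be told apart. Nothing in the labels says that samples of a group came from separate cultures or animals, so the p-values measure only the spread between these samples, which may be technical.

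The transcription factor HIF-1 has a subunit regulated by oxygen, HIF-1alpha. In well-oxygenated cells prolyl hydroxylases mark it for degradation through the von Hippel-Lindau protein, and in low oxygen it accumulates, pairs with ARNT and binds DNA at a short core motif near its target genes. Known targets serve glucose uptake and glycolysis, glycogen storage, lactate production, restraint of mitochondrial pyruvate use, mitophagy, collagen modification and signals to blood vessels. A related subunit, HIF-2alpha (Epas1), is regulated by the same hydroxylases and shares some of these targets.

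Values are the deposited scaled intensities, given for the arrays in the order of sample numbers 1, 2 and 3. Differences are null minus wild type on the log2 scale after 4.7 was added to each value, so they understate the change of dim genes. Trimmed means were 200.13 to 200.16 on all 10 arrays and medians 60 to 70.9. The hypoxic arrays of equal number resembled each other: the deviations from the group means correlated at r = 0.542 to 0.678 within the 3 hypoxic pairs and at -0.518 to -0.146 between hypoxic arrays of different number. Deviations cancel out within each group, so positive values within pairs force negative ones between numbers on average. The negative values are therefore no separate evidence of pairing. The 18S ribosomal control probe sets of both number 3 hypoxic arrays stood apart, with log2 means of 12.33 (wild type) and 12.18 (null), the other hypoxic arrays being at 7.38 to 8.97. The summed level of 19 stellate cell and fibroblast markers, genes of a cell type that shares the liver with hepatocytes, also followed the number more than the group. It was 20360 and 19258 in wild type and null of number 1, 15139 and 13261 of number 2, and 7184 and 6571 of number 3. Albumin (Alb), the defining hepatocyte product, was bright on every hypoxic array, at 9436, 11480.5 and 12354 in wild type and 10659, 10883 and 11183 in null.

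Under hypoxia, cells without HIF-1alpha held lower levels of genes that commit glucose to glycolysis and glycogen (Hk2, Pfkl and Gys1), of the oxygen sensor Egln1 and of the mitochondrial genes Fam162a and Ak4. They also held lower levels of clotting factor IX (F9), the proteoglycan Sdc2 and the translation factor Eif1b, and a higher level of the chemokine gene Ccl2. In limma with the sample number as a block, these 9 genes fell and Ccl2 rose at an adjusted p under 0.05, which is 0.121% and 0.0134% of the 7453 probe sets tested. At an unadjusted p under 0.05 the counts were 342 lower (4.59%) and 350 higher (4.7%), nearly even in direction. Across all probe sets the median difference was 0.02. In all 3 pairs 1069 probe sets (14.3%) were lower and 1370 (18.4%) higher. By at least 0.5 in each pair, 49 (0.657%) were lower and 44 (0.59%) higher. Every null array lay below every wild-type array for 204 (2.74%) and above for 301 (4.04%).

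The calls rest on few arrays. With no block for the sample number, 0 probe sets were called in either direction, with 126 lower and 126 higher (1.69% each) at an unadjusted p under 0.05. Leaving out wild-type number 1 gave 2 lower (0 of the 9 among them) and 6 higher calls, and leaving out null number 1 gave 15 lower (4 of the 9 among them) and 12 higher. Leaving out wild-type or null number 2 or 3, one at a time, gave 0 lower, and Ccl2 was called in every one of these 6 fits. Without both number 1 arrays all 10 genes were called, among 49 lower and 34 higher. With the 6 hypoxic arrays alone, Ccl2 and Hk2 were called.

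**Figure D1:**
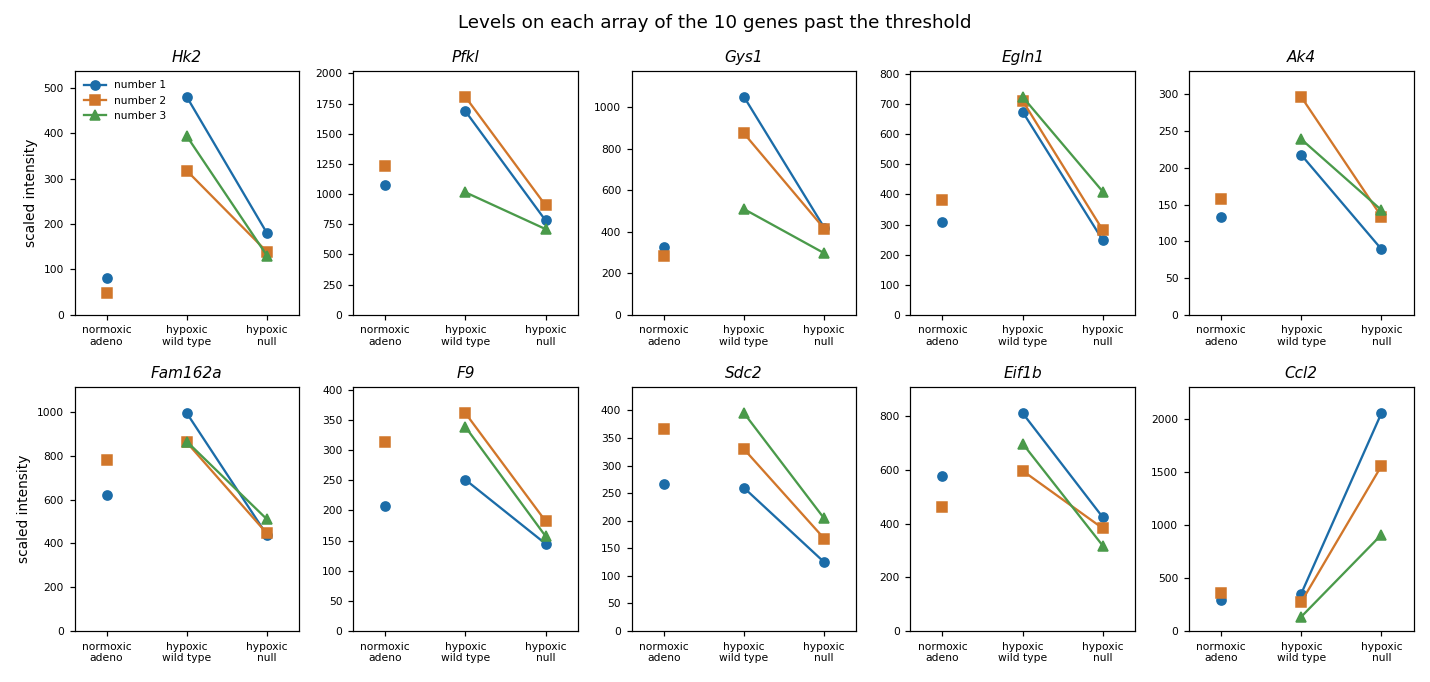
Scaled intensity (vertical axis, from 0, a scale of its own in each panel) of the 10 genes past the threshold on the normoxic adeno-treated, hypoxic wild-type and hypoxic null arrays. Each point is 1 array, shape and colour give the sample number, and lines join wild type and null of equal number: for the first 9 genes every null array lies below every wild-type array, and for Ccl2 every null array lies above.

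The step that traps glucose in the cell showed the largest fall among the called genes. Hk2 encodes hexokinase 2, which phosphorylates glucose. Its level was 479.7, 317 and 393 on the wild-type arrays and 179.8, 139 and 130.3 on the null arrays, against 81.3 and 49.0 on the normoxic adeno-treated arrays. The null arrays thus lay below all wild-type arrays and above both normoxic ones. The fall was 2.59-fold, a log2 difference of -1.37 (SE 0.16, limma adjusted p = 0.0278), and it was of similar size in each pair, at -1.39, -1.17 and -1.56. Pfkl encodes the liver form of phosphofructokinase, the main control point of glycolysis. Its level was 1687, 1806 and 1015 in wild type and 782, 907 and 710.2 in null. The groups did not overlap, and the number 3 wild-type array was the lowest of its group, under both normoxic adeno-treated levels of 1075 and 1230.5. The log2 difference was -0.87 (SE 0.13, adjusted p = 0.0444), and it was smallest in pair 3 (-1.11, -0.99 and -0.51).

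Slc2a1, the glucose transporter GLUT1 that carries glucose into the cell, read 1772, 1823 and 1666 in wild type and 837, 1297 and 1194 in null. Every null array lay below every wild-type array, yet all 3 remained far above the normoxic adeno-treated levels of 169 and 195. The log2 difference of -0.68 did not pass (SE 0.15, adjusted p = 0.116). Further down the pathway, Pgam1, the phosphoglycerate mutase, read 2433, 3165 and 2886 in wild type and 1544, 2109 and 2211 in null. Its log2 difference was -0.54 (adjusted p = 0.0756), with no overlap between the groups. The abundant enzymes Aldoa (aldolase A, -0.18 on its brighter probe set and -0.46 on the other), Tpi1 (-0.19), Pkm (pyruvate kinase, -0.15, with pairs of both signs on a dimmer probe set) and Ldha (lactate dehydrogenase A, -0.31) were lower in all 3 pairs by smaller amounts. Ldha read 6075, 7319 and 6054 in wild type and 4635, 5656 and 5433 in null, and the highest null array lay just below the lowest wild-type array. Pgk1 was not of 1 direction, with -0.29, -0.65 and 0.18 in the 3 pairs.

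The members of the glycolysis list differed among themselves. Of its 14 tested genes, 9 were lower in all 3 pairs, 0 were higher in all 3, and 2 (Hk2 and Pfkl) passed, against 0.141% of all genes called lower. The median difference was -0.22, against 0.02 over all 5688 genes tested, of which 15.4% were lower in all 3 pairs and 18.8% higher. Without pair 3 the median was -0.41, with 12 of 14 lower in both pairs left, and under quantile normalization it was -0.18. Isoenzymes of the same step differed in value: Hk1, the widely expressed hexokinase, lay at 0.01 beside Hk2, and the muscle phosphofructokinase Pfkm at 0.03 beside Pfkl. The platelet form Pfkp lay at -0.75 (-0.995, -1.06 and -0.20 in the pairs), and at -0.39 with pairs of both signs on a dimmer probe set. The second glucose transporter, Slc2a3, lay at 0.32 with pairs of both signs. Pfkfb3, which makes the activator of phosphofructokinase, also had pairs of both signs (-0.49, -0.19 and 0.76). The differences between isoenzymes were not tested.

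**Figure D2:**
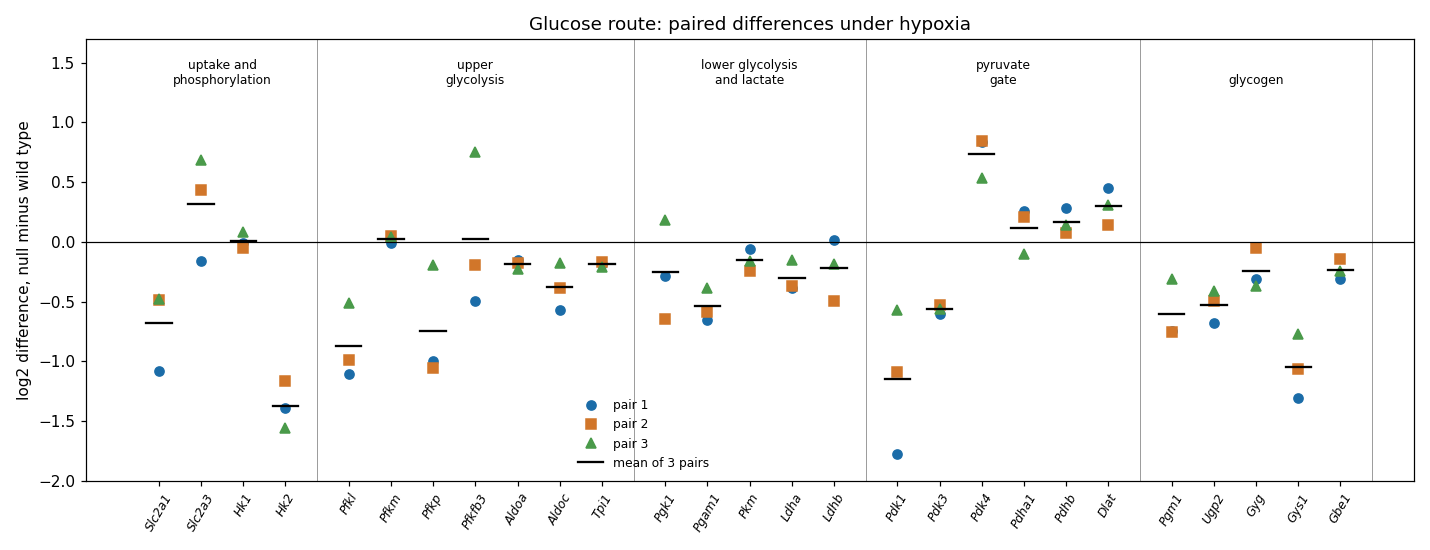
Paired log2 differences (null minus wild type, vertical axis) for 27 tested genes of glucose uptake, glycolysis, lactate, the pyruvate gate and glycogen, grouped by step along the horizontal axis. Points are the 3 pairs of equal number and bars their means: Hk2, Pfkl, Pdk1, Pdk3 and Gys1 lie below -0.5 in all 3 pairs, and Pdk4 lies above 0.5.

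At the entry of pyruvate into the mitochondria, kinases of 1 family lay on opposite sides of 0. Pdk1, a kinase that shuts pyruvate dehydrogenase, read 428, 323 and 246 in wild type and 122, 149.5 and 164 in null. The groups did not overlap, and the null arrays also lay below the normoxic adeno-treated levels of 219 and 255. The log2 difference of -1.15 (SE 0.21) narrowly missed the threshold (adjusted p = 0.0756). Pdk3, another kinase of the complex, was lower by a like amount in each pair (-0.61, -0.53 and -0.56, adjusted p = 0.255). Pdk4, the member known for its induction in fasting, read 92.7, 129 and 139 in wild type and 169.5, 236 and 204 in null, higher in each pair and with no overlap (0.74, adjusted p = 0.245). The subunits that the kinases act with, Pdha1 (0.12), Pdhb (0.16) and Dlat (0.30, and 0.62 on a dimmer probe set), were not called, nor was Ldhb (-0.22) or the lactate transporter Slc16a1 (0.16). In this list of 9 tested genes, 3 were lower and 3 higher in all 3 pairs, and the median was 0.12. The shares over all genes tested were 15.4% and 18.8%.

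Among the genes of glycogen synthesis the synthase gene Gys1 fell, and the others did not pass the test. Gys1, the muscle-type glycogen synthase, read 1049.7, 874 and 509 in wild type, 420.4, 415 and 297 in null and 324 and 283 in normoxic adeno-treated cells. The null arrays lay below all wild-type arrays, 2 of them above both normoxic arrays and 1 between them. The fall was 2.07-fold, a log2 difference of -1.05 (SE 0.15, adjusted p = 0.0444). Pgm1, phosphoglucomutase, which links glucose 6-phosphate to glycogen, read 2479, 2591 and 2085 in wild type and 1478, 1532 and 1683 in null, without overlap (-0.60, adjusted p = 0.079). Ugp2, which makes the glucose donor of the synthase, lay at -0.53 (-0.68, -0.49 and -0.41 in the pairs, adjusted p = 0.121). Gbe1, the branching enzyme, lay at -0.23 and Gyg, the glycogenin primer, at -0.25 on its brighter probe set and 0.34 on the other, each of 1 sign in all 3 pairs, so that its direction is not settled. Of 12 tested glycogen genes 6 were lower in all 3 pairs and 0 higher, with a median of -0.19, which was -0.21 under quantile normalization. Among all genes tested 15.4% were lower and 18.8% higher in all 3 pairs, and 0.141% were called lower.

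Among the genes that sense oxygen, the called member was Egln1, whose product hydroxylates HIF-1alpha and so starts its breakdown. It read 674, 711 and 724 in wild type, 3 arrays within a narrow range. In null it read 248, 281 and 409, around the normoxic adeno-treated levels of 308 and 381 and without overlap with wild type. The fall was 2.28-fold, a log2 difference of -1.19 (SE 0.16, adjusted p = 0.0341), again smallest in pair 3 (-1.43, -1.32 and -0.82). Both probe sets named for Hif1a read higher in null in all 3 pairs, by 0.56 (adjusted p = 0.0941) and 0.52 (adjusted p = 0.188). The brighter of them read 1096, 704 and 712 in wild type and 1689, 1141 and 910.3 in null, with overlap between the groups. The labels do not say which stretch of Hif1a was deleted, so whether these probe sets lie within it is unknown and they are no check of the labels. Neither Epas1 (0.21, HIF-2alpha) nor Arnt (-0.05), the shared partner subunit, had 1 direction in the 3 pairs. Vhl, the gene of the von Hippel-Lindau protein, read 5.50, 73.8 and 49.2 in wild type and 52.2, 45.9 and 73.6 in null, and its difference of 0.80 rests on the first of these arrays. Of the 11 tested genes of this list 2 were lower (Egln1 and Cited2, an inhibitor of HIF transcription, at -0.30) and 1 was higher (Hif1a) in all 3 pairs. The shares over all genes tested were 15.4% lower and 18.8% higher, with 0.141% called lower.

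The promoters of the called genes are shown because HIF-1 is known to bind the core ACGTG or GCGTG. The sequences are from a RefSeq table of build GRCm38.p6, which held 8 of the 9 genes that fell, and give the 250 bases before the first listed start of each gene, 5′ to 3′ on the gene's own strand. Capitals mark ACGTG or GCGTG on either strand, so that CACGT and CACGC are the same letters on the other strand, and CACGTG holds ACGTG on both. The first 5 of the called genes that hold such letters are printed, in order of adjusted p.
Hk2, chr6:82774455-82774704, minus strand: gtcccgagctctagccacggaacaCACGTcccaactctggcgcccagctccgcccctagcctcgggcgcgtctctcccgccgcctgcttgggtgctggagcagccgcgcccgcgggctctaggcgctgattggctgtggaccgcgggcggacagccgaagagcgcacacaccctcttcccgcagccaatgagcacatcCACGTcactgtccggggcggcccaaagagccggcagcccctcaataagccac
Egln1, chr8:124949255-124949504, minus strand: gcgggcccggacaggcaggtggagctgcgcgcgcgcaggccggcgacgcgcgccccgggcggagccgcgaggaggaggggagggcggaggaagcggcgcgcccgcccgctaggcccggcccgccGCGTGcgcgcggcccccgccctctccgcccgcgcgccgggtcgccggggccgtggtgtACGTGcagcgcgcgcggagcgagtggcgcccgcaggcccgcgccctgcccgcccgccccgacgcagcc
Eif1b, chr9:120492356-120492605, plus strand: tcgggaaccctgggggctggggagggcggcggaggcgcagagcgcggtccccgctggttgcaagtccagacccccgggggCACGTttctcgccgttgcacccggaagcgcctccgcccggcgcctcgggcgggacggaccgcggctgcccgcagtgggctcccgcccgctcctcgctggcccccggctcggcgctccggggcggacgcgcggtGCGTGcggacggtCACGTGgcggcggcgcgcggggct
Pfkl, chr10:78009808-78010057, minus strand: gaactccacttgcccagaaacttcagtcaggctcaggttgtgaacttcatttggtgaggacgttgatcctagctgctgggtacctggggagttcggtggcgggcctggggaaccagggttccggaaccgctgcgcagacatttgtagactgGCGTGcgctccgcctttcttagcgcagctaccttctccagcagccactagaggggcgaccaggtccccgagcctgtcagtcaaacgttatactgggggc
Fam162a, chr16:36071562-36071811, minus strand: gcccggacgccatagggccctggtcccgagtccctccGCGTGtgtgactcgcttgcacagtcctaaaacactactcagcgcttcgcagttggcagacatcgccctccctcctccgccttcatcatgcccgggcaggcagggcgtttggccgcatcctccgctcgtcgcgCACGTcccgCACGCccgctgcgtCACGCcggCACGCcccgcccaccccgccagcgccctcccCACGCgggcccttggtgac

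Hk2 held ACGTG at 2 places, 226 and 52 bases before the start. Egln1 held 1 GCGTG and, 68 bases before the start, 1 ACGTG. Eif1b held a CACGTG that begins 24 bases before the start, Pfkl a single GCGTG at 99, and Fam162a 6 matches. The upstream windows of F9 and Gys1 held neither motif, and Ak4 held matches upstream of each of its 4 listed starts. The letters are common: 38.6% of all 32851 listed promoters hold ACGTG or GCGTG in the same window, and 57.5% of the promoters of 4609 genes tested here. Of the genes lower by at least 0.5 in every pair, 25 of 36 with a listed promoter held 1 of the motifs (69.4%), and 15 of 36 held ACGTG (41.7%). Of the genes higher by as much, 16 of 35 held 1 of the motifs (45.7%) and 3 of 35 held ACGTG (8.6%). Among the tested genes the share with ACGTG was 22.9%. The median GC content of the windows was 62.8% for the lower, 59.6% for the higher and 60% for the tested genes. A match describes these letters in this window and is neither a binding site nor a cause, and the shares were not tested against each other.

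The signals that hypoxic cells send to blood vessels read within overlapping ranges with and without HIF-1alpha. Adm, which encodes the vasodilator adrenomedullin, read 1662, 2612 and 2928 in wild type and 1482, 2089.7 and 2602 in null, against 78.7 and 89.7 in normoxic adeno-treated cells. The groups overlapped, and both were far above normoxia. The log2 difference was -0.22 (SE 0.14, adjusted p = 0.689). Vegfa, whose product drives the growth of blood vessels, differed far more between sample numbers than between genotypes, with 258, 526 and 849.7 in wild type and 225, 501 and 790.2 in null (-0.12, SE 0.25). Pgf, the placental growth factor, read 700.5, 739 and 342 in wild type and 738, 798 and 310.0 in null (0.01, SE 0.13), with the number 3 arrays lowest in both groups. A p that misses the threshold does not show that the levels are equal. In the list of 13 secreted vascular and erythroid factors 4 were lower and 1 higher in all 3 pairs, with a median of -0.04. In limma 0 were called, with 1 lower and 1 higher at an unadjusted p under 0.05, against 290 and 273 of all 5688 genes tested. The 4 were Adm, Vegfa, Vegfb (-0.35) and Angptl4, an inhibitor of lipoprotein lipase (-0.34, with 0.04 and 0.13 on its dimmer probe sets), and the 1 was the heme oxygenase gene Hmox1 (0.31). Epo, the erythropoietin gene, lay at -0.165 with pairs of both signs (0.34, -0.76 and -0.07).

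Genes that act on mitochondria and cell death lay on both sides of 0. Fam162a, a mitochondrial protein known to respond to hypoxia, read 995, 861 and 865 in wild type and 438, 446 and 510.1 in null, without overlap. It fell 1.94-fold, a log2 difference of -0.96 (SE 0.15, adjusted p = 0.0484). Ak4, a mitochondrial adenylate kinase, has 2 probe sets. The dimmer read 218, 296 and 239 in wild type and 89.3, 134 and 142 in null and passed (-1.03, SE 0.16, adjusted p = 0.0484). The brighter read 445, 402 and 379 and 139, 156 and 235 and missed the threshold by little (-1.22, SE 0.19, adjusted p = 0.0553). Both sets of null arrays lay below all wild-type arrays.

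Bnip3, a receptor for mitophagy, read 884, 964 and 654 in wild type and 226, 677 and 636 in null. The difference was largest in pair 1 and close to 0 in pair 3 (-1.95, -0.51 and -0.04), and the groups overlapped (adjusted p = 0.345). Higd1a, a small mitochondrial protein induced by hypoxia, lay at -0.69, and the mitochondrial protease Lonp1 at -0.37, both lower in all 3 pairs. In the other direction, Bid, which carries death signals to mitochondria, read 89.1, 90.9 and 90.1 in wild type and 182, 194 and 180.2 in null. Both groups were tight and did not overlap, yet the difference of 1.004 (SE 0.17) had an adjusted p of 0.0752. Cycs, cytochrome c, lay at 0.63 (0.71, 0.49 and 0.71 in the pairs) and Casp8, an initiator caspase, at 0.48. Of the 15 tested genes 6 were lower and 3 higher in all 3 pairs, with a median of -0.19. Among all genes tested the shares were 15.4% and 18.8%.

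Enzymes that modify collagen read lower in null in most cases, and none passed the test. P4ha2, a catalytic subunit of collagen prolyl 4-hydroxylase, read 790.2, 894 and 624 in wild type and 419, 544 and 441 in null on its brighter probe set (-0.70, adjusted p = 0.0756), without overlap, and lay at -0.54 on the other. P4ha1, the related subunit, lay at -0.64 (-0.64, -0.56 and -0.74 in the pairs, adjusted p = 0.298). Ero1a, an oxidase of protein folding, lay at -0.68, the lysyl oxidase Lox at -0.44 and the lysyl hydroxylase Plod3 at -0.36. P4hb, the partner subunit of the prolyl hydroxylase, lay at 0.10 with pairs of both signs. Of 7 tested genes 5 were lower in all 3 pairs and 0 higher, and the median was -0.44 (-0.47 under quantile normalization). None (0) passed in limma, with 4 lower at an unadjusted p under 0.05, against 290 of all 5688 genes tested.

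Other reported HIF targets ranged from clear differences to none. Ddit4, an inhibitor of growth signalling through mTOR, read 1524, 1909 and 2272 in wild type and 313, 1246 and 1355 in null. The groups did not overlap, but the number 1 null array was far below the other 2, and the difference of -1.21 had an adjusted p of 0.191. Mxi1, an antagonist of Myc, read 246, 181 and 247 and 99.8, 128 and 133 (-0.87, adjusted p = 0.0819). Ccng2, an atypical cyclin of resting cells, read 389, 488 and 486 and 252, 212 and 311 (-0.81, adjusted p = 0.0827). For both genes all null arrays lay below all wild-type arrays. Ndrg1, a stress-responsive gene, had high levels in both groups: 3794, 3479 and 3042 in wild type and 2044, 3026 and 2142 in null on the brighter probe set, against 1282 and 1585 in normoxic adeno-treated cells (-0.53, adjusted p = 0.17). The histone demethylase Kdm3a lay at -0.61. By contrast the clock-linked repressor Bhlhe40 (-0.16), the transferrin receptor Tfrc (-0.01) and Igfbp1 (0.02), a binding protein of insulin-like growth factors, lay near 0. Of 19 tested genes 8 were lower in all 3 pairs and 0 higher, with a median of -0.13. In limma 0 were called, with 5 lower at an unadjusted p under 0.05, against 290 of all 5688 genes tested.

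The 8 lists that link to HIF hold 99 tested genes in all. They contain 11 of the 46 genes lower by at least 0.5 in every pair (23.9%), and 2 of the 38 genes higher by as much (5.3%), Bid and Pdk4, while they hold 1.74% of all genes tested. Of the 99 genes, 11.1% were lower by that much, against 0.809% of all genes tested, and 2.02% were higher, against 0.668%. These counts take any probe set of a gene, and on the brightest alone the shares of all genes tested are 0.791% and 0.563%. The lists were drawn up with earlier results of these data known, so these shares describe the lists and are not independent evidence of their direction.

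Most genes lower by at least 0.5 in every pair lay outside those lists. Sdc2, a cell-surface heparan sulfate proteoglycan, read 259.5, 329.6 and 395 in wild type and 125, 168 and 204 in null. In both groups the number 1 array was the lowest and the number 3 array the highest, and the paired differences were nearly equal (-1.03, -0.96 and -0.94). It fell 1.96-fold (-0.97, SE 0.12, adjusted p = 0.033). F9, clotting factor IX, read 251, 361 and 338 in wild type and 145, 182 and 157 in null, with all null arrays also below the normoxic adeno-treated levels of 207 and 314 (-0.94, SE 0.13, adjusted p = 0.0444). Eif1b, a factor of translation start sites, read 810.4, 596 and 697 in wild type and 423, 382 and 317 in null and also lay below normoxic levels of 577 and 462 (-0.90, SE 0.13, adjusted p = 0.0444).

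Nampt, the rate-limiting enzyme that salvages nicotinamide into NAD, came closest to the threshold among the genes not called. It read 237, 169.5 and 215 in wild type and 75.8, 89.6 and 80.3 in null, against 106 and 72.0 in normoxic adeno-treated cells (-1.28, SE 0.20, adjusted p = 0.0547). Wild type stood above both other groups. H2-Ab1, a chain of the class II molecules that present antigen, read 98.1, 87.0 and 112 in wild type, 50.1, 33.6 and 35.6 in null and 27.8 and 27.7 in normoxic adeno-treated cells (-1.23, adjusted p = 0.0819). H2-Eb1 (0.02) and Cd74 (0.22) of the same interferon and antigen presentation list had pairs of both signs. Of its 16 tested genes 4 were lower and 4 higher in all 3 pairs, with a median of 0.10, against 15.4% and 18.8% of all genes tested. Sap30, a subunit of a histone deacetylase complex, read 135, 111 and 178 in wild type and 68.9, 60.6 and 87.6 in null, the latter between wild type and the normoxic adeno-treated 59.2 and 53.7 (-0.91, adjusted p = 0.0833).

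Genes were also ranked by the smallest of their 3 paired differences, and others of the 20 highest in that rank read lower in null at lower signal. The endosomal chloride exchanger gene Clcn3 has 4 probe sets, all lower on average, with log2 differences of -1.04, -0.97, -0.93 and -0.39. On the brightest it read 407, 217 and 372 in wild type and 128, 154 and 233 in null, where the number 2 wild-type array overlapped the null range. Bdnf, a neurotrophin, read 149, 75.4 and 36.6 in wild type and 63.0, 28.6 and 19.1 in null, so that the groups overlapped although each pair differed (-1.18, -1.27 and -0.80). Tbl2 (-1.003), Nav2 (-1.06), the ribokinase gene Rbks (-0.87), the endosomal gene Wdfy2 (-0.84) and the nuclear pore gene Seh1l (-0.83) were lower in each pair as well. Of the 20 genes, 7 were called and 15 had no overlap between the groups, which their choice by size in every pair makes likely. Of all probe sets tested, 0.121% were called lower and 2.74% had every null array below every wild-type array.

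**Figure D3:**
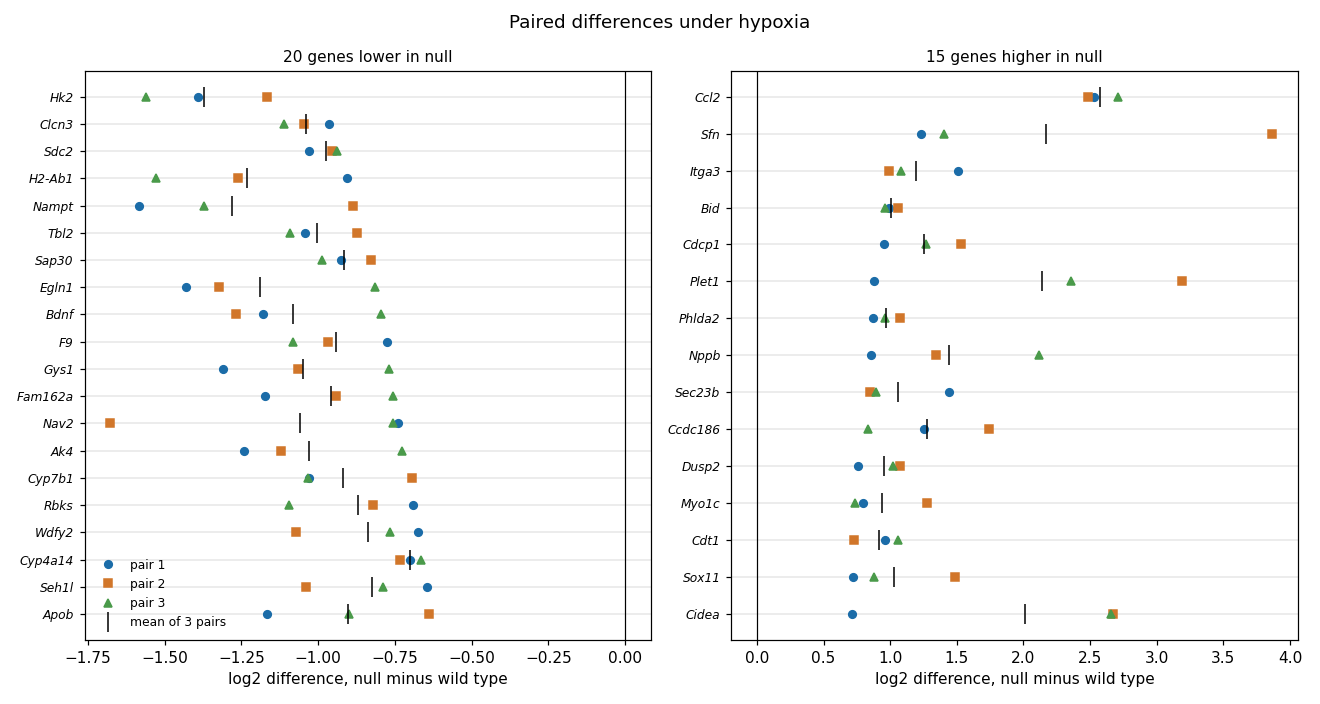
Paired log2 differences (horizontal axis, null minus wild type) of the 20 genes lower and the 15 genes higher in null that rank highest by the smallest of their 3 paired differences. Symbols are the pairs of equal number and vertical bars their means: the lower genes lie between -1.68 and -0.64, and among the higher genes Ccl2 is tight near 2.57 while Sfn, Plet1 and Cidea spread widely.

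Ccl2, a chemokine that draws monocytes into tissue, was the gene that rose. It read 354, 275 and 135 in wild type and 2059, 1561 and 910.5 in null. Every null array was above every other array of the series, the normoxic ones reading 292 and 356 with and 504 and 636 without adeno treatment. In both hypoxic groups the number 1 array was the highest and the number 3 array the lowest, and the paired differences were 2.53, 2.49 and 2.71. The rise was 5.96-fold, a log2 difference of 2.57 (SE 0.17, adjusted p = 0.000246, and 0.31 with no block). No other gene of the inflammatory list was called. Cxcl1, a chemokine for neutrophils, lay at 0.22, the chemokine Ccl9 at -0.50, the adhesion molecules Icam1 at 0.23 and Vcam1 at -0.24 with pairs of both signs, and the acute-phase protein haptoglobin (Hp) at -0.03. Saa3, a serum amyloid A gene, read 87.8, 40.7 and 40.6 in wild type and 113, 272 and 378 in null, a difference of 2.01 that was large in pairs 2 and 3 and small in pair 1 (0.35, 2.61 and 3.08, adjusted p = 0.155). Of 18 tested genes of chemokines, cytokines and the acute phase 4 were higher and 2 lower in all 3 pairs, with a median of 0.02, and Ccl2 was called, against 0.0176% of all genes called higher.

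Most of the 15 genes that rank highest in the upward direction read low in wild type. Sfn, the epithelial 14-3-3 protein sigma, read 101, 9.10 and 49.3 in wild type and 245, 196 and 138 in null. The number 2 wild-type array was close to the offset, which sets the size of that pair (1.23, 3.86 and 1.40). Plet1, an epithelial surface protein, read 42.2, 15.9 and 41.3 and 81.4, 183 and 231, and Cidea, a protein of lipid droplets, read 50.1, 24.2 and 25.2 and 85.0, 179.5 and 184. Both differed most in pairs 2 and 3, with mean log2 differences of 2.14 (adjusted p = 0.0752) and 2.01 (adjusted p = 0.079).

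Itga3, the integrin alpha-3 subunit, has 2 probe sets of like brightness. The one that puts it in the rank read 185, 176 and 82.8 in wild type and 535, 354 and 181 in null (1.20, SE 0.20, adjusted p = 0.0724), and the other lay at 0.86 (adjusted p = 0.116). The groups overlapped, with the number 1 array highest and the number 3 array lowest in each. Nppb, the gene of brain natriuretic peptide, read 103, 80.9 and 36.6 in wild type and 190.4, 213 and 175 in null (1.44, adjusted p = 0.079). Cdcp1 (1.25), a transmembrane glycoprotein, the imprinted gene Phlda2 (0.97), the phosphatase gene Dusp2 (0.95), the myosin gene Myo1c (0.94), the transcription factor gene Sox11 (1.03) and Ccdc186 (1.28) were higher in each pair. Sec23b, of the vesicle coat, belongs to these 15 through a dim probe set at 1.06, while its brighter probe set lay at 0.07. Of the 15 genes, 12 had no overlap, which their choice by size in every pair makes likely, and 1 (Ccl2) was called. Of all probe sets tested, 4.04% had every null array above every wild-type array and 0.0134% were called higher. Without both number 1 arrays 6 were called, among them Cidea, Plet1 and Itga3.

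Genes of cell division mostly read higher in null cells by modest amounts, and none passed the test. Of 27 tested proliferation genes 16 were higher and 1 lower in all 3 pairs, with a median of 0.27. None (0) passed in limma, with 7 higher at an unadjusted p under 0.05, against 273 of all 5688 genes tested. Under quantile normalization 13 were higher and 2 lower, with a median of 0.22. Cdt1, which licenses DNA for replication and is not on the list, read 248, 189 and 176 in wild type and 347, 426 and 389.5 in null on its brighter probe set, without overlap, and lay at 0.92 and 0.91 on its 2 probe sets (adjusted p = 0.0756 and 0.0753). Ccne1, cyclin E1 of the entry into DNA synthesis, read 220.0, 259 and 279.8 in wild type and 353, 426 and 412 in null (0.64, adjusted p = 0.155). The helicase subunits Mcm5 (0.68), Mcm4 (0.52) and Mcm2 (0.40), the nucleotide reductase subunits Rrm1 (0.42) and Rrm2 (0.44), and Ccnd1, cyclin D1 (0.38), lay on the same side. Ccna2, cyclin A2, was the 1 member lower in all 3 pairs (-0.33).

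**Figure D4:**
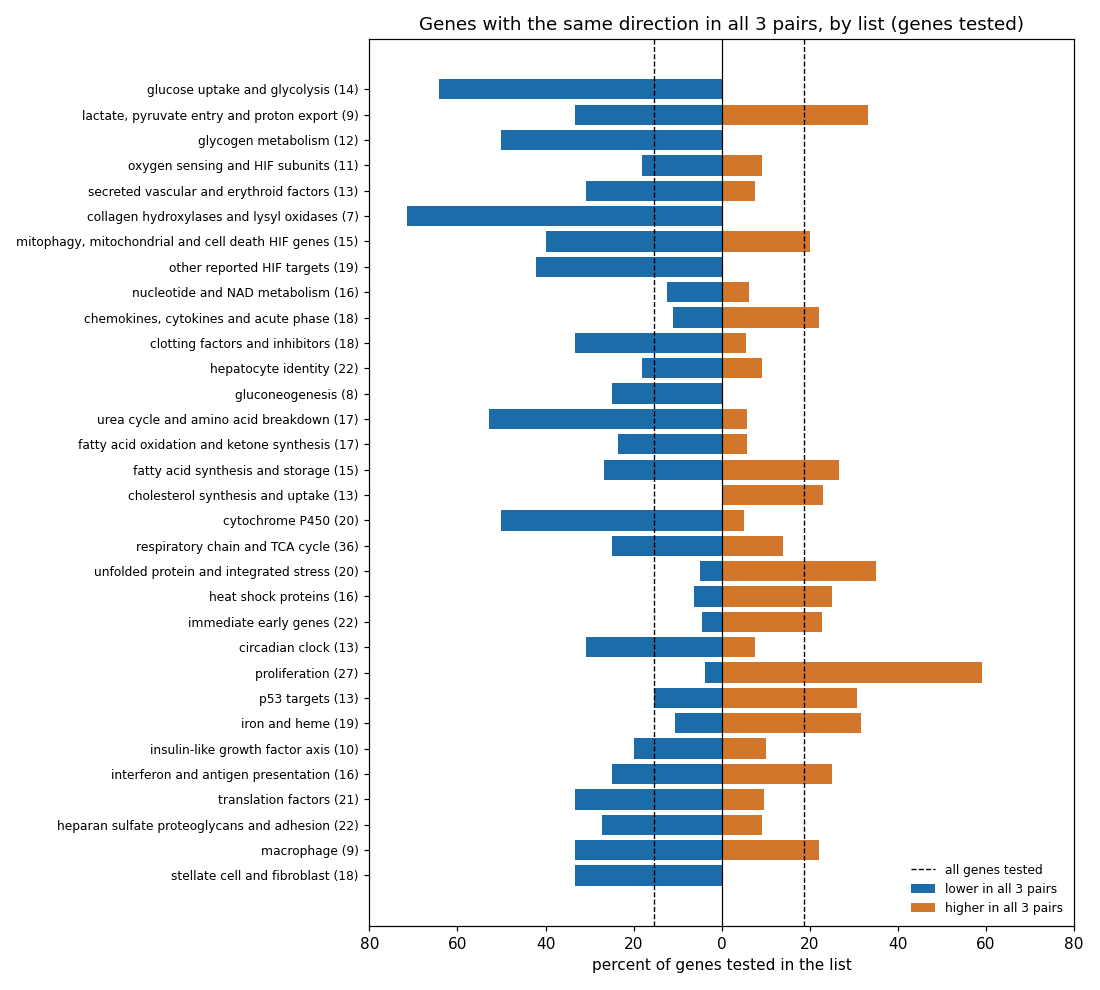
Percent of the tested genes of each list (number in brackets) that were lower (left) or higher (right) in null than in wild type in all 3 pairs, 1 probe set per gene. Dashed lines give the same over all 5688 genes tested, 15.4% and 18.8%: glycolysis, glycogen, collagen enzymes, cytochrome P450 and urea cycle genes reach 50% or more on the left, and proliferation genes 59.3% on the right.

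Genes of other liver functions lay on both sides of 0. Of 20 tested cytochrome P450 genes, 10 were lower and 1 higher in all 3 pairs, with a median of -0.09. In limma 0 were called, with 9 lower and 1 higher at an unadjusted p under 0.05, against 290 and 273 of all 5688 genes tested. Cyp3a25, an enzyme of drug metabolism, read 525, 839 and 1363 in wild type and 357, 438 and 957 in null, with overlap, the number 3 array being the highest in each group (-0.66, adjusted p = 0.15). Cyp7b1, an oxysterol hydroxylase of bile acid synthesis, lay at -0.92 and Cyp4a14, a fatty acid hydroxylase, at -0.70 with nearly equal pairs (-0.70, -0.73 and -0.66). Cyp2c38 lay at -0.61 and Cyp2e1 at -0.53. Cyp8b1, which sets the type of bile acid made, lay at 1.59 but with pairs of both signs (-0.13, 2.69 and 2.20).

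The counts below stand against 15.4% lower and 18.8% higher in all 3 pairs over all genes tested, and 0.141% called lower. Of 17 genes that make urea or break down amino acids 9 were lower and 1 higher in all 3 pairs (median -0.14, and -0.10 under quantile normalization). They include Arg1, the arginase that ends the urea cycle (-0.37), the ornithine carrier Slc25a15 (-0.66), Aass of lysine breakdown (-0.72) and Fah of tyrosine breakdown (-0.34). The 1 higher was Oat, ornithine aminotransferase (0.69). Of 18 clotting genes 6 were lower and 1 higher (median -0.23). Beside F9 these include F13b (-0.63), F5 (-0.53) and plasminogen, Plg (-0.42), and the 1 higher was F10 (0.26). Hepatocyte identity genes lay around 0, with 4 of 22 lower, 2 higher and a median of -0.02. The members farthest from 0 lay on both sides. Foxa2, a transcription factor of liver development, lay at 0.86 (0.14, 1.74 and 0.70 in the pairs, adjusted p = 0.566) and Fabp1, the fatty acid binding protein of liver, at 0.80 with pairs of both signs. Apob, the apolipoprotein that carries liver fat into blood, lay at -0.90 (-1.17, -0.64 and -0.90 in the pairs, adjusted p = 0.356), at levels of 460.1, 116 and 523 in wild type and 202, 72.5 and 278 in null that varied widely within each group. Of 36 genes of the respiratory chain and the citric acid cycle, 9 were lower and 5 higher with a median of 0.02, none by 0.5 in each pair.

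In the stress, cholesterol, translation and clock lists Eif1b was the called gene. Over all genes tested, 15.4% were lower and 18.8% higher in all 3 pairs, and 0.141% were called lower. In the unfolded protein and integrated stress list 7 of 20 were higher and 1 lower in all 3 pairs, with a median of 0.08. Herpud1, of the degradation of misfolded proteins, was the largest at 0.55 (0.51, 0.46 and 0.69 in the pairs, adjusted p = 0.129). Of 13 cholesterol genes 3 were higher and 0 lower (median 0.12), with Dhcr7, the last enzyme of the pathway, at 0.51. Of 21 translation factors 7 were lower, among them Eif1b and the translation repressor Eif4ebp1 (-0.39), and 2 higher. Nfil3, a clock-controlled repressor, read 306, 490.4 and 419 in wild type and 200.2, 277 and 295 in null (-0.64, adjusted p = 0.0833), and Per1, a clock gene, lay at -0.44.

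Markers of other liver cell types were measured beside these differences. Of 18 tested stellate cell and fibroblast markers 6 were lower in all 3 pairs, among them Col1a1 (-0.36) and Lum (-0.36), and 0 higher, with a median of -0.09. Their summed level was 7184 to 20360 in wild type and 6571 to 19258 in null. Of 9 macrophage markers 3 were lower and 2 higher (median -0.17), with a summed level over 16 markers of 922 to 1749 in wild type and 929 to 1313 in null. Cd14, a receptor for bacterial lipopolysaccharide, was among the lower, with 583, 463 and 339 in wild type and 300.2, 321 and 199 in null (-0.74, adjusted p = 0.079). C1qb was at -0.55, while Cd68 was higher at 0.51. Summed levels of 11 endothelial markers were 597.5 to 1426 in wild type and 538 to 1236 in null, and of 6 biliary markers 1894 to 5082 and 1484.5 to 5147. Summed levels of 12 lymphocyte markers were 421 to 474 in wild type and 296 to 636 in null, and of 5 erythroid markers 177 to 245 and 238 to 307. By pairs, the endothelial sum was lower in null each time, with log2 ratios of -0.21, -0.03 and -0.15. Much of that sum was Eng, at 364.5 to 992 on the hypoxic arrays. The stellate cell and fibroblast sum was also lower in each pair (-0.08, -0.19 and -0.13). The macrophage, biliary, lymphocyte and erythroid sums had pairs of both signs. The pan-leukocyte marker Ptprc, the endothelial marker Icam2 and the T cell markers Cd2 and Cd3d were near 0 on all hypoxic arrays. Many other markers were dim as well. Of the markers on the array, 9 of 16 for macrophages, 3 of 11 for endothelium and 4 of 12 for lymphocytes passed the intensity filter. In RNA of mixed cells, fewer cells of a type and less RNA per cell cannot be told apart, and the part of such cells in the differences above was not tested.

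Set beside the normoxic arrays, the 9 genes that fell did not all read alike. In wild type 6 of the 9 read above both normoxic adeno-treated levels on every array, and in null 5 of the 9 read below both on every array. The 9 were chosen for null levels below wild type, which by itself makes such counts likely. The same shares over all probe sets were not taken, so the counts only describe these genes. Hk2 alone stayed above both normoxic adeno-treated levels on all null arrays. Egln1 came down to about the normoxic adeno-treated levels, and Gys1 in null lay between or above them. F9, Sdc2, Fam162a, Eif1b and Pfkl in null lay below the normoxic adeno-treated levels. The normoxic adeno-treated levels were 267 and 367 for Sdc2, 622 and 780.3 for Fam162a and 133 and 157 for the called probe set of Ak4. That probe set read 89.3, 133.7 and 142.5 in null, with no null array above the higher normoxic level. Among the 3 pairs, the difference was smallest in pair 3 for 6 of the 9 genes, with medians of -1.17, -0.99 and -0.82 in pairs 1, 2 and 3. Pair 3 is also the pair with the high 18S control signal, and a link between them was not tested.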

How the data were processed

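The values analysed are the deposited series table, 1 column per array for 10 arrays (0 columns unmapped), in the unit intensity, linear, and kept as the authors scaled them. Neither labels nor headers used here name the software or the steps from scan to value. Gene symbols came from the platform's annotation, updated through a RefSeq table: of 12488 probe sets, 10855 have 1 symbol (10839 matched), 396 several and 1237 none. A probe set with f, s or r before the end of its name may also catch related transcripts, and a gene with several is counted by the brightest.

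Before log2, an offset of 4.7 (the 10th percentile over the table) was added. The 66 control probe sets and those below the 40th percentile of the mean log2 value were left out, leaving 7453 tested. They were fitted with limma 3.58.1 in R 4.3.3 (group means and sample number as a block, all 10 arrays, 4 residual degrees of freedom, eBayes with an intensity trend), 2-sided, with Benjamini-Hochberg adjustment over all 7453 and a threshold of 0.05. Adjusted p-values are from this fit. It was also run on data simulated from the same model with independent normal errors. That run takes the pairing and the errors as given, so it cannot check them. Precision is limited by how few arrays there are. The number pairs the hypoxic arrays: 6 of 6 correlated best with the array of the same number among hypoxic arrays. All 13 same-number pairs of arrays correlated above 0.1 in their deviations from group means (lowest 0.106). In groups of 2 arrays these deviations mirror each other, so the 13 values are not independent. Pairing with normoxic arrays was less clear. Untreated number 2 correlated at 0.161 with null number 2 and 0.251 with null number 3, and at 0.106 and 0.149 with wild type. Adeno-treated number 2 correlated at 0.131 and 0.186 with null, and at 0.177 and 0.175 with wild type.

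Genes are named if called, if among the 20 lower and 15 higher by the smallest of the 3 paired differences, if among up to 4 leading members of a list, or if on a short list of hypoxia and liver genes. Further list members and probe sets were named after their values were seen. The comparison, its genes and the 36 gene lists were chosen with earlier results of these data known. The alternatives were other offsets, filters, normalization and variance prior, no block, the 6 hypoxic arrays alone, and leaving out arrays or pairs. The filter on linear means and the list medians under other settings were added after seeing the data.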

Additional observations from a re-analysis of the deposited data

How the results depend on the processing

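With no replicate block, 0 probe sets were higher and 0 lower, against 1 and 9 with the sample numbers as pairs. The 9 lower became 1 with the 6 hypoxic arrays only, 0 with no filter, 31 with the 60th percentile filter and 0 with no intensity trend, and the 1 higher became 14 with the 60th percentile filter. That filter tests fewer probe sets, 4969; the cause of the other shifts was not tested. Leaving out 1 array or 1 pair gave 0 to 49 lower and 1 to 34 higher. An offset of 0.5 times the main one (9 lower), 4 times the offset (11), quantile normalization (11) and the filter on linear means (7) moved the lower count little, and the higher count stayed at 1 under these.

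Over the remaining pairs when 1 was left out, 1690 to 1981 probe sets were lower and 1971 to 2639 higher in both, against 1069 and 1370 in all 3, and 110 to 144 were lower and 101 to 218 higher by at least 0.5, against 49 and 44. Fewer pairs make each condition easier to meet. With no filter 2170 were higher in all 3 pairs, and 86 lower and 113 higher by at least 0.5. With the 60th percentile filter 894 were higher, and 22 by at least 0.5.

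Not every gene given a log2 difference was followed through these settings. H2-Eb1 and Cd74, whose pairs had both signs, are not covered here. Among the genes followed, the sign of the log2 difference turned when 1 array or pair was left out for Alb (-0.1104 to 0.0493), Arnt (-0.2855 to 0.2199), Epas1 (-0.0222 to 0.3577), Epo (-0.4182 to 0.1346), Hk1 (-0.0487 to 0.0878), Hp (-0.098 to 0.0384), Igfbp1 (-0.2609 to 0.302), P4hb (-0.0622 to 0.308), Pdhb (-0.0125 to 0.3316), Pfkfb3 (-0.3429 to 0.2815), Pfkm (-0.0144 to 0.075), Pgf (-0.0495 to 0.0923), the brighter Sec23b probe set (-0.0507 to 0.1745), Tfrc (-0.0876 to 0.0984), Vcam1 (-0.3883 to 0.0189), Vegfa (-0.3583 to 0.1197) and Vhl (-0.1504 to 1.6472). Under quantile normalization it turned for Pfkfb3 (-0.0335) and Tfrc (0.0003), and under the other settings for none of the genes followed.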
